A study of Drosophila melanogaster with 4 samples.

Results

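The euchromatin of chromosome arm 3R of Drosophila melanogaster carried 1989 of the 11173 H3K4me1 peaks called in S2-DRSC cells, or 17.8% of the list. A peak was counted here when it lay on 3R and its midpoint was at or above base 1500000 of FlyBase release 5. This leaves out the 137 peaks of 3R nearest the centromere and keeps 1989 of 2126. The first member lay at 3R:1529954-1530158 and the last at 3R:27895661-27905153. The nearest peak outside the boundary was at 3R:1496515-1498211, 1697 bases wide and scoring 41.2, against 205 bases and 10.6 for the first member.

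S2-DRSC is an established cell line made from late embryos and labelled male. Formaldehyde-fixed, sonicated chromatin was precipitated with a rabbit polyclonal antibody against H3K4me1, and 2 such ChIP libraries and 2 libraries of input DNA were sequenced. The data used here were the authors' 1 peak list, so no value per library, no read depth and no input signal entered any comparison. Every spread below is over blocks or peaks of that list and not over biological replicates, and no test between conditions was possible.

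H3K4me1 is histone H3 carrying a single methyl group on lysine 4. In flies it is placed mainly by the methyltransferase Trr and is known from enhancers, active and primed, and from the borders of active promoters, where trimethylation of the same lysine takes over at the start site. Chromosome arm 3R is known to hold both Hox gene clusters of the fly, the Antennapedia and bithorax complexes, and its outer end is a telomere made of retrotransposon arrays. Coordinates of genes on release 5 were not used here, so no peak or gap below is assigned to a gene.

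Of the euchromatin of 3R, 2L, 3L and X, the 4 arm regions compared, that of 3R was the most densely marked; 2R was not among them. Its 26.4 Mb held 75.3 peaks per Mb, and 8.27% of its bases lay inside a peak. Per 100-kb block, coverage was 8.26% ± 8.41 (SD, n = 264 blocks). For the background, 2L, 3L and X were taken without the 1.5 Mb at their centromeric ends. There were 70.1 peaks per Mb on 3L, 55.9 on 2L and 45.1 on X, with coverages of 7.71%, 5.91% and 5.32%. The difference in coverage between 3R and the other arm was 0.55 percentage points for 3L, 2.35 for 2L and 2.95 for X. None of these differences was tested.

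The higher coverage of 3R went with the number of peaks rather than their size. Relative to 2L, 3R had 1.35 times the peaks per Mb and 1.04 times the mean width. Relative to X, it had 1.67 times the peaks per Mb and 0.93 times the mean width. Relative to 3L, the factors were 1.07 and 1.00. Marked sequence on 3R was also spread more evenly over its blocks. The most covered 10% of its blocks, 26 of 264, held 32.3% of the covered bases, while the same share of blocks held 38.2% on 2L, 39.3% on 3L and 49.3% on X. On 3R, 50 blocks, 18.9% of all, were enough to hold 50% of the covered bases, against 15.3% of the blocks on 2L, 14.8% on 3L and 10.5% on X. The share of blocks without any peak base was nevertheless alike on 3R (15.9%) and 3L (15.2%), with 23.3% on 2L and 34.9% on X.

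Density was higher at each step from the centromeric to the telomeric side of 3R. When the region was divided into 3 equal stretches of 8.80 Mb, the proximal stretch held 501 peaks, the middle stretch 668 and the distal stretch 820. These counts correspond to 56.9, 75.9 and 93.2 peaks per Mb. Coverage was 5.96% ± 6.37 per block in the proximal stretch, 8.18% ± 9.90 in the middle stretch and 10.6% ± 8.004 in the distal stretch (SD, n = 88 blocks each). The distributions of blocks overlapped widely, and the order was not tested. Peak widths were alike along the way, with medians of 605, 585 and 625 bases.

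Blocks without any peak base were scarce in the distal part of 3R. They numbered 20 of 88 in the proximal stretch, 17 of 88 in the middle stretch and 5 of 88 in the distal stretch. With the blocks laid from the start of the distal stretch instead, a grid tried after seeing the data, 3 were empty. In the distal stretch the 5 empty blocks made up 5.68%, against 9.09% on 3L, 20.8% on 2L and 21.4% on X. The same order of peaks per Mb towards the telomere was seen on X, from 26.4 to 40.1 and 68.8. On 3L the middle stretch was the sparsest, with 44.3 peaks per Mb between 75.6 and 90.4, and on 2L the middle stretch was the densest, with 68.8 between 41.0 and 58.0. By peaks per Mb, the order seen on 3R was therefore shared with X but not with 2L or 3L. By coverage, 2L also had higher values at each step, with 4.06%, 6.79% and 6.89%, as had X, with 3.22%, 4.51% and 8.22%. On 3L, coverage was 7.73%, 4.02% and 11.4%.

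**Figure D1:**
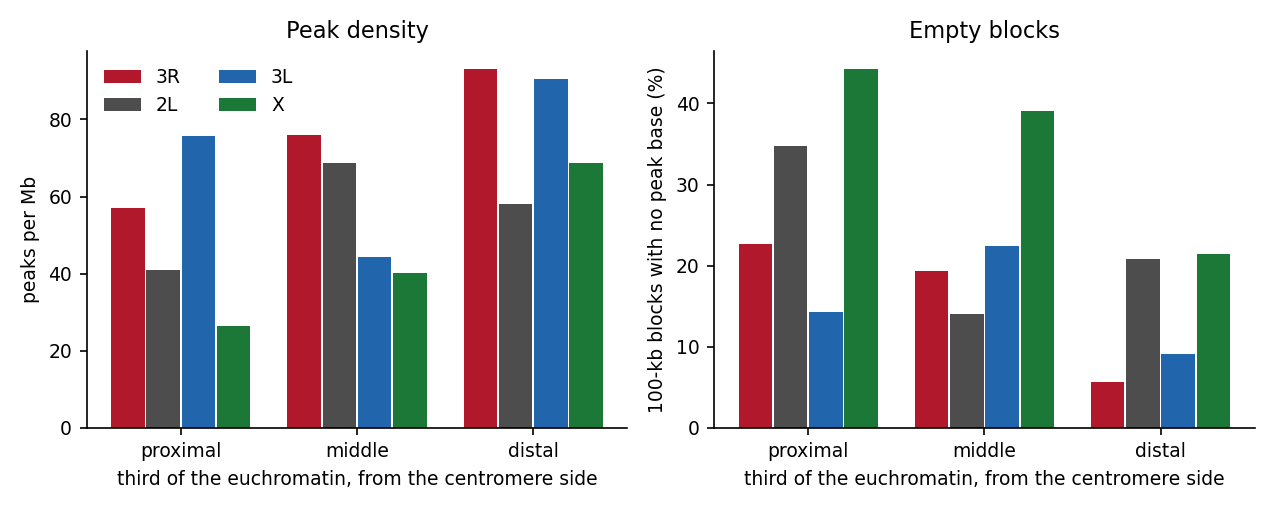
Peaks per Mb (left) and percent of 100-kb blocks without a peak base (right) in the proximal, middle and distal stretch of the euchromatin of 3R, 2L, 3L and X, ordered from the centromere side. On 3R density goes from 56.9 to 93.2 peaks per Mb, and 5.68% of the distal blocks are empty.

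At a finer scale the order was uneven. Over the 26 segments of 1 Mb (the last one running on to the end of the arm), density ran from 26 to 138 peaks per Mb, with a median of 70.9, and coverage from 1.73% to 15.1%. The densest segment by coverage was 3R:11500001-12500000, with 103 peaks covering 15.1%. It was followed by 3R:25500001-26500000 with 138 peaks and 14.2%, and by 3R:4500001-5500000 with 116 peaks and 13.98%. Dense segments thus occurred near the middle, near the telomere and in the proximal part.

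The sparsest segment by coverage was 3R:2500001-3500000, with 28 peaks covering 1.73%. The fewest peaks, 26, lay in 3R:1500001-2500000, where they covered 3.91%. Next after the sparsest by coverage came 3R:9500001-10500000, with 37 peaks and 3.32%, and 3R:14500001-15500000, with 47 peaks and 3.32%. The 3 least covered lay in the proximal and middle stretches. Sparse and dense segments could adjoin: the densest segment of 3R was followed directly by 3R:12500001-13500000, where 39 peaks covered 5.10%. The spread over segments on 3R, an SD of 3.72 percentage points, was close to that of 2L (3.74) and smaller than those of X (4.82) and 3L (5.33).

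**Figure D2:**
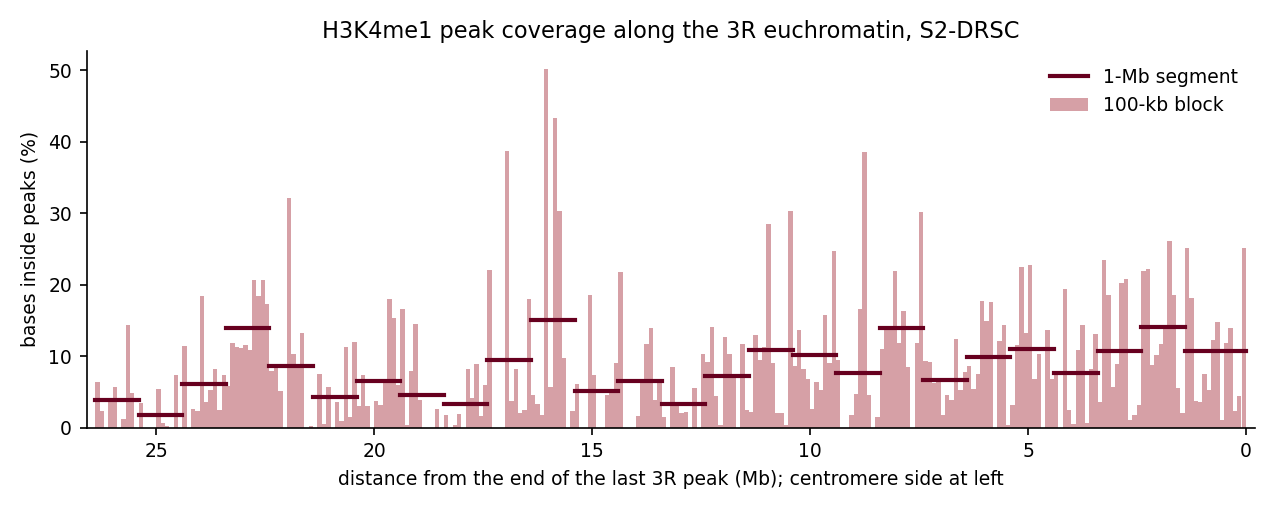
Percent of bases inside peaks along the 3R euchromatin, by 100-kb block (bars) and 1-Mb segment (dark lines), against the distance from the end of the last 3R peak in Mb. The highest bar reaches 50.2%, and 42 of the 264 blocks are empty.

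Single blocks reached far higher coverage than the segments that held them. In 3R:11800001-11900000, 26 peaks covered 50.2% of the bases, the highest share of any 100-kb block in the 4 arm regions, where the maxima were 43.2% on 3L, 41.2% on X and 35.2% on 2L. The second block, 3R:12000001-12100000, held 25 peaks covering 43.4%. Peaks there also scored high, with 15 of the 25 in the top 25% of the scores of the 4 arm regions. Scores are given in this way, as percentiles over the 5746 peaks of the 4 regions, because the unit of the authors' score is not known.

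The other blocks among the 5 densest were 3R:10900001-11000000 with 24 peaks and 38.8%, 3R:19100001-19200000 with 20 peaks and 38.6%, and 3R:5900001-6000000 with 17 peaks and 32.2%. Of these 5, 3 lay within 1.2 Mb of each other. Number and coverage did not go together everywhere. The block with the most peaks, 34, was 3R:17400001-17500000, where the median width was 445 bases, the median score percentile 40.8 and the coverage 30.3%. In 3R:8200001-8300000, 30 peaks with a median width of 379.5 bases covered only 18.0%.

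Long gaps divided the arm into separate marked stretches. On 3R, 54 gaps of 100 kb or more lay between neighbouring peaks and together took up 9.16 Mb, or 34.7% of the region. The share was 39.9% on 3L, 43.4% on 2L and 59.9% on X. Of the gaps on 3R, 10 were 200 kb or longer, against 13 on 3L, 17 on 2L and 21 on X. The longest gap on 3R was 369 kb, close to the 357 kb of 3L and shorter than the 450 kb of 2L and the 813 kb of X.

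The 10 longest gaps of 3R lay at 3R:8974315-9343080 (369 kb), 3R:13589418-13944031 (355 kb), 3R:10573941-10902105 (328 kb), 3R:2591315-2910135 (319 kb) and 3R:18584555-18877608 (293 kb), followed by 3R:12948273-13217973 (270 kb), 3R:19212580-19478245 (266 kb), 3R:12588281-12811280 (223 kb), 3R:15050942-15267277 (216 kb) and 3R:16157198-16369271 (212 kb). Of these 10, 7 began in the middle stretch, 2 in the proximal and 1 in the distal stretch. The middle stretch thus combined the densest blocks with most of the longest gaps. In all, 26 of the 54 gaps of 100 kb or more began in the proximal stretch, 17 in the middle and 11 in the distal stretch.

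**Figure D3:**
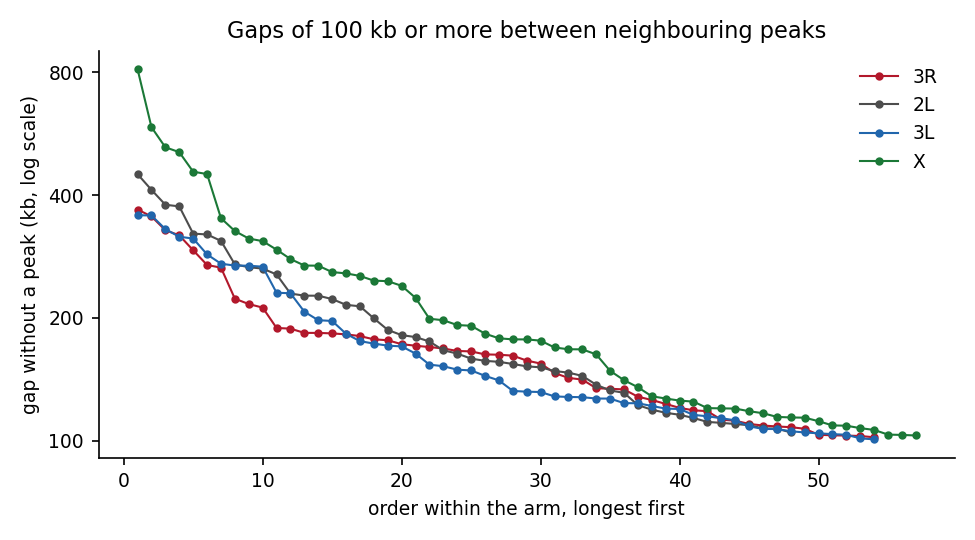
Length in kb (log scale) of every gap of 100 kb or more between neighbouring peaks, ordered from the longest within each arm region. The 3R gaps start at 369 kb and lie below those of X over the whole range.

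The peaks at the edges of these gaps had no uniform strength. The 223-kb gap was bordered on its centromeric side by a single peak of 6181 bases at score percentile 99.1 and on the other side by a peak of 4745 bases at percentile 85.8. The 319-kb gap, in contrast, lay between peaks of 514 and 675 bases at percentiles 8.83 and 7.03. Over all 103 peaks of 3R that bordered a gap of 100 kb or more, the median percentile was 45.7, against 51.7 for the other 1886. A share of 32.0% of the bordering peaks was nevertheless in the top 25%, against 25.3% of the others. On the other arms the bordering peaks had a median percentile of 53.5 against 44.3 on 2L, 48.3 against 50.2 on 3L and 76.1 against 51.3 on X, so the order of the medians differed between arms.

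Between the gaps lay 55 marked stretches with a median of 15 peaks, and 5 of them consisted of a single peak. The longest stretch free of a 100-kb gap was 3R:24832530-27264418, which measured 2.43 Mb and held 262 peaks covering 12.1%. On the other arms the longest such stretch was 1.97 Mb on 3L, 1.63 Mb on X and 1.15 Mb on 2L. The second on 3R ran over 1.80 Mb at 3R:3734157-5537994, with 172 peaks covering 11.0%, and the most covered of the longest 4 was 3R:10902106-12294739, with 162 peaks covering 16.0%. These stretches were chosen after their values were seen.

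Within the marked stretches, peaks stood close together. Of 1988 pairs of neighbours on 3R, 1136, or 57.1%, were less than 2000 bases apart (exact 95% interval 54.9 to 59.3, for counting error only). The shares on 2L, 3L and X ran from 55.7% to 57.3%, a range that includes 3R. The median gap on 3R was 1295 bases, with quartiles of 285 and 7619 bases, and 698 gaps, 35.1%, were under 500 bases. Chains of neighbours less than 2000 bases apart are called runs here. They held all but 388 of the 1989 members, and 643 members lay in 96 runs of 5 or more peaks.

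The 5 longest runs of 3R each spanned more than 25 kb. The longest was 3R:12043825-12082712, with 14 peaks over 38888 bases, of which 76.6% lay inside a peak. The run at 3R:25580961-25617560 had 7 peaks over 36600 bases, and that at 3R:19140439-19169996 had 8 peaks over 29558 bases and was 90.7% covered. The run with the most peaks, 16, lay at 3R:17406355-17432880 and spanned 26526 bases, and the fifth, at 3R:10946906-10972376, held 12 peaks over 25471 bases. Runs of 10 kb or more numbered 53 on 3R, or 20.1 per 10 Mb, against 17.0 on 3L, 11.9 on X and 11.6 on 2L. Among all runs of 2 or more peaks they were 53 of 465 on 3R, 39 of 383 on 3L, 25 of 214 on X and 25 of 284 on 2L. By that share 3R and X were alike.

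Peaks in long runs of 3R had higher scores than solitary peaks, a difference that was not tested. The median percentile was 43.3 for the 388 single peaks, 49.6 for the 958 peaks in runs of 2 to 4 and 58.9 for the 643 peaks in runs of 5 or more. The median widths were 578.5, 594 and 659 bases, and the share in the top 25% was 20.9%, 23.7% and 31.4%. The same order of median percentiles was seen on 2L (40.4, 46.2 and 48.5), on 3L (40.8, 51.1 and 54.5) and on X (45.7, 51.9 and 57.9).

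The widths of the 3R members ran from 200 to 19468 bases. The median was 608 bases (95% interval of the median 580 to 639) with quartiles of 340 and 1235 bases, and 30 members had the minimum of 200 bases. The median was 576.5 bases on 3L, 548 on 2L and 642 on X, so 3R lay within the range of the other arms. Only 83 members, 4.17%, were 4 kb wide or more, and they held 23.1% of the summed width. On 2L, 3L and X that share of peaks was 5.40%, 4.97% and 6.14%. At the upper extreme the order was different, though on few peaks. There were 9 members of 8 kb or wider on 3R, 3 on 2L, 4 on 3L and 4 on X. As shares of the peaks these were 0.45% on 3R, 0.25% on 2L, 0.25% on 3L and 0.42% on X, so 3R was close to X.

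Score percentile followed width on 3R, with a Spearman rho of 0.83 over the 1989 members, which are not independent. Members under 300 bases had a median percentile of 14.7, those from 500 to 1000 bases 54.5, those from 2000 to 4000 bases 84.7 and those from 4000 to 8000 bases 94.96. The overall score level of 3R was close to the middle of the 4 regions, with a median percentile of 51.3 (95% interval 49.0 to 53.5) and 25.6% of its members in the top 25%. This standing is among the 4 regions only: 757 of the 1989 members were at or above the median score of the whole list. The median percentile was 45.7 on 2L, 50.2 on 3L and 52.7 on X.

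The 10 widest members included the widest peak of the whole list, 19468 bases at 3R:11830996-11850463, which stood in the most covered block and scored at percentile 96.5. The following were 3R:20424400-20435699 with 11300 bases, 3R:27539662-27550318 with 10657 bases and 3R:25587314-25597455 with 10142 bases. Their percentiles were 91.6, 89.4 and 99.96, so the greatest widths did not always carry the greatest scores. The other 6, from 9598 down to 7627 bases, lay at 3R:5169138-5178735, 3R:27895661-27905153, 3R:19160709-19169996, 3R:19840197-19849226, 3R:2222524-2230647 and 3R:25600457-25608083. Each of the 10 belonged to a run, with 2 to 8 peaks. Over all 1989 members, 19.5% were single.

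The order by score gave a different set. After the last peak of the arm, with a score of 506, came 3R:25587314-25597455 with 295.8, 3R:26505277-26512755 with 268.8 and 3R:6209456-6212753 with 249.7. The remaining 6 of the top 10 scored between 225.7 and 234.6 and lay at 3R:10957871-10959533, 3R:13401083-13408570, 3R:6205116-6209094, 3R:23168498-23170747, 3R:27823762-27831236 and 3R:11444491-11452016. The gap between the first and the second score, from 506 to 295.8, was wider than that from the second to the tenth. Of these 10 peaks, 5 were single, although single peaks as a class had the lowest median percentile.

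On 3R, the order among wide peaks was the opposite of that over all peaks. Among the 83 members of 4 kb or more, the 21 single peaks had a median percentile of 98.0, and 16 of them reached percentile 95. The 32 that lay in runs of 5 or more had a median of 91.7, and 10 reached percentile 95. Their median widths were similar, 5650 and 5367 bases. On 2L the medians were 97.9 for 24 single peaks and 89.1 for 13 in runs of 5 or more, on X 97.3 for 18 and 94.3 for 14, and on 3L 94.3 for 16 and 91.97 for 26. The difference was not tested.

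**Figure D4:**
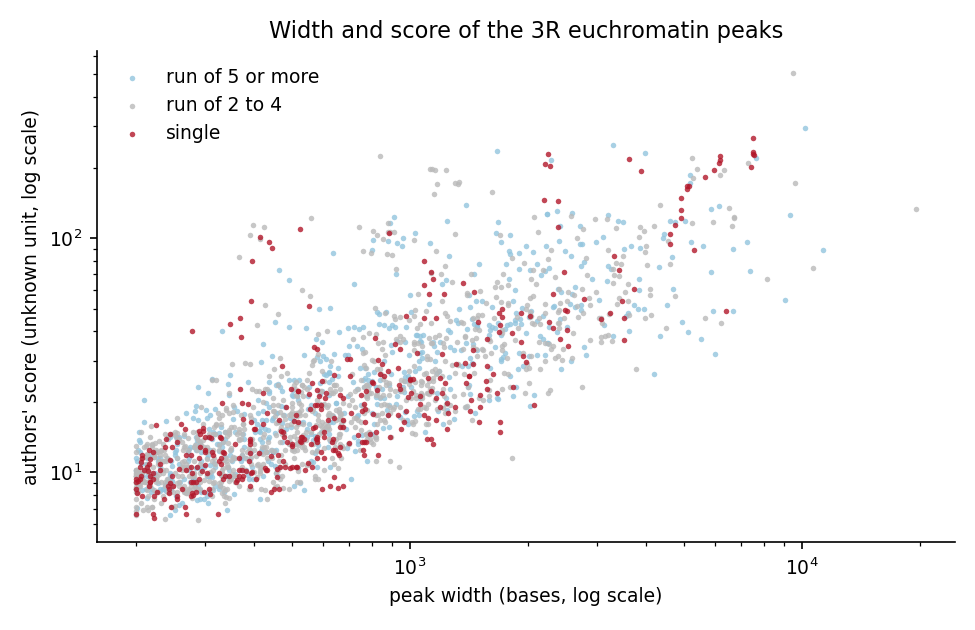
Authors' score against width in bases (both log scales) for the 1989 members, coloured by whether a peak is single, in a run of 2 to 4 or in a run of 5 or more. Single peaks lie low at small widths, while above 4 kb they gather in the upper part, and the last peak of the arm stands alone at a score of 506.

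A width of about 7.5 kb recurred among these peaks, with 4 members between 7475 and 7526 bases on 3R. They lay at 3R:11444491-11452016 (7526 bases), 3R:13401083-13408570 (7488 bases), 3R:26505277-26512755 (7479 bases) and 3R:27823762-27831236 (7475 bases). All 4 were single, with scores of 225.7, 233.8, 268.8 and 228.2, and the nearest neighbour of each was at least 10099 bases away. Peaks on the other arms were counted in a width class that reached below and above the range of these 4 widths. This class held 10 peaks on 2L, 3 on 3L and none on X. The widest of these 13 had 7538 bases, and each of the 13 was at or above percentile 99. The counts depend on the limits of the class: from 7400 to 7700 bases there were 6 peaks on 3R, 11 on 2L, 3 on 3L and none on X.

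The telomeric end of 3R was not rich in peaks but held strong ones. Its last 1 Mb had 56 peaks covering 9.51%, fewer than the 177 on 3L and the 102 on 2L and more than the 32 on X. In the last 500 kb there were 26 peaks, of which 12 were in the top 25%, and in the last 100 kb 7 peaks covered 22.6%. The median percentile over these windows was 51.7, 61.7 and 76.8. The same order was seen on 2L, with 43.3, 51.6 and 70.3, and on X, with 78.6, 83.0 and 93.9, where 3 peaks were left in the last 100 kb. On 3L the medians were 56.8, 51.4 and 52.5.

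The last 10 peaks of 3R mixed very high and very low scores. Counted inward from the end, their percentiles were 99.99, 86.9, 76.8, 29.6, 0.30, 99.6, 56.1, 80.2, 77.6 and 91.3, and their positions ran from 3R:27895661-27905153 inward to 3R:27721647-27722441. The fifth, at 3R:27879464-27879684, was among the weakest members of the arm, with a score of 6.61. The sixth, at 3R:27823762-27831236, was one of the 7.5-kb peaks named above, and 48227 bases without a peak lay between these 2. The last peak formed a run of 4 with the 3 peaks inside it, the nearest only 164 bases away.

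Without the last peak, coverage of the last 100 kb of 3R was 13.1%, against 15.7% on 2L, 23.2% on 3L and 5.93% on X with their end peaks included. The end peaks themselves differed between arms. That of 3R ranked first of its region by score and sixth by width, with 9493 bases. The list gives no length for the arm, so whether this peak runs past the end of the assembled sequence was not tested, and its width and the windows measured from its end carry that doubt. That of 2L had 5470 bases and percentile 82.9, that of 3L 727 bases and percentile 52.5, and that of X 896 bases and percentile 93.9. On 3L the outermost peaks instead formed a dense group of moderate scores, with 22 peaks in 100 kb, of which 1 was in the top 25%.

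**Figure D5:**
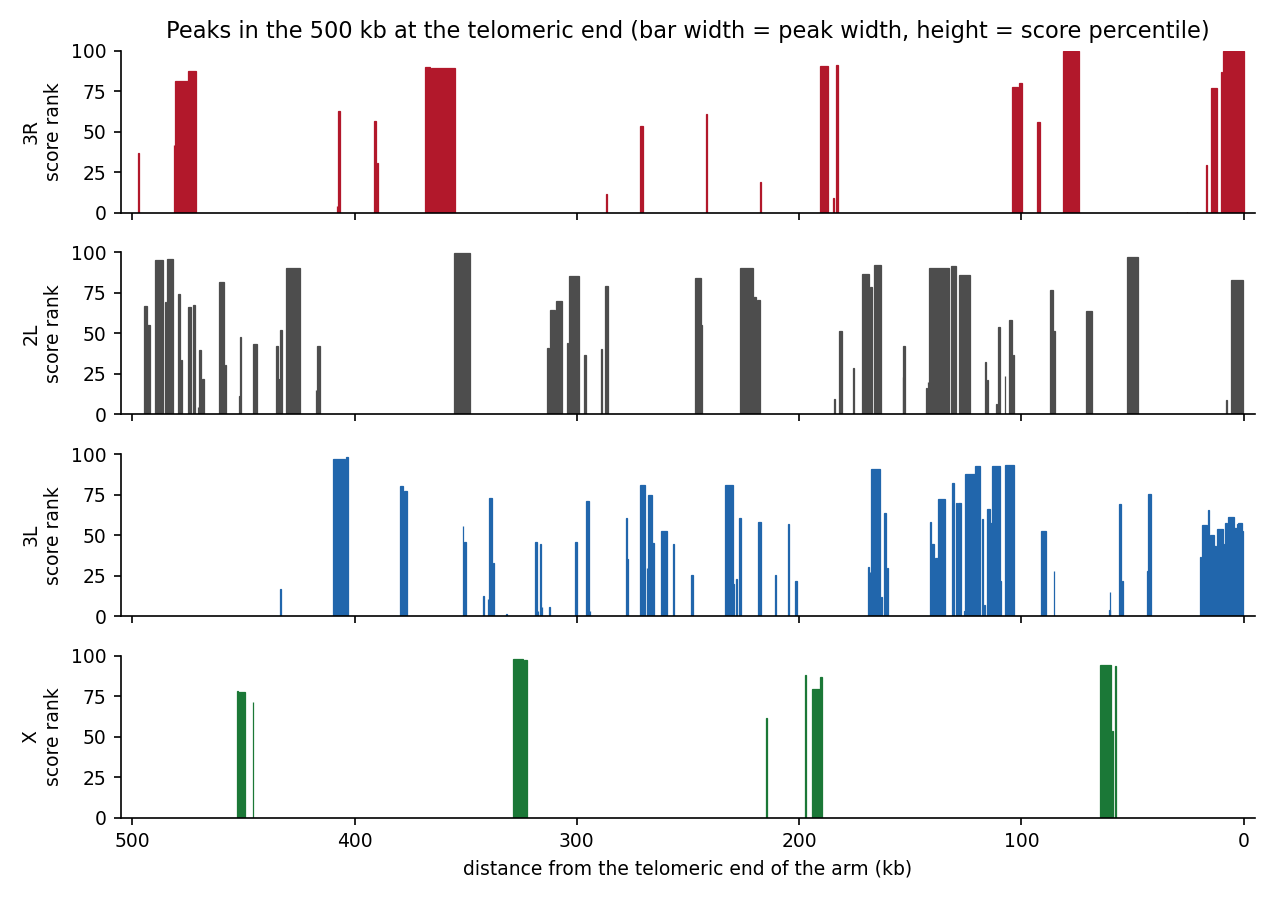
Peaks in the 500 kb at the telomeric end of 3R, 2L, 3L and X, against the distance from the end in kb. Bar width is the peak width and bar height the score percentile over the 4 regions; on 3R the last bar stands at percentile 99.99.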

How the data were processed

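Per the labels, 2 H3K4me1 ChIP and 2 input libraries of S2-DRSC cells were made. The authors deposited 1 list of peaks with start, end and a score. Positions refer to FlyBase release 5 per the file headers, and MACS is named as the source of each line. The submitters' processing notes name CASAVA (1.7.0.2 and 1.7.0.3), BWA, MACS2 and BDGP5 without roles. For the threshold, any pooling of replicates and the scale of the deposited score, nothing is stated in these sources. Scores were therefore compared by rank among the 5746 peaks of the 4 arm regions.

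Starts count from 0 in the file and from 1 in the text. Width is end minus start. The 3R region ran from base 1500000 to the end of the last peak, and the regions of 2L, 3L and X from base 1 to 1.5 Mb before the end of the last peak. Blocks of 100 kb were laid from the start of each region, a final piece under 50 kb being merged with its neighbour. Intervals at 95% are exact binomial, or by order statistics for medians. The work used Python 3.11.15 with numpy 2.4.6, scipy 1.17.1, pandas 2.3.3 and matplotlib 3.10.9, and the procedures were tested on simulated data. Alternatives were stricter scores, joined peaks, removal of narrow peaks, and other boundaries, blocks and gaps.

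Positions were named by a rule: the 5 densest blocks, 3 densest and 3 sparsest segments, 10 longest gaps, 10 widest and 10 highest-scoring members, 5 longest runs, last 10 peaks, first member and members of about 7.5 kb. Chosen after their values were seen were the blocks with the most peaks, the stretches between gaps, the segment after the densest one, the segment with the fewest peaks, the recurring arrangement, the width windows and the members with unusual width for their score. The region and rule were chosen with earlier results of these data known.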

Additional observations from a re-analysis of the deposited data

How the results depend on the processing

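Under each other peak list and boundary, 10 values were recomputed. These were coverage, peaks per Mb, the coverage differences, close neighbours and empty blocks, and median width, median percentile and long gaps. Fewer settings were used for runs, the densest block, the last 100 kb and empty distal blocks. With other block and gap settings, this made 82 repeats in all. Density in the 3 stretches, evenness over blocks, run classes, wide peaks and the recurring arrangement were among the results not recomputed. No difference reversed; 51 repeats stayed inside the 95% interval of the value or, where there is none, within 1.5 times it, and 31 moved further. Stricter lists are smaller by construction. The median percentiles given for them rank the members only among the arm-region peaks left in that list. They are not on the percentile scale used above, which ranks over all peaks of the regions. They give the standing of 3R within the stricter list and not how high its scores are. With the 757 members at or above the median score of the list there were 28.7 peaks per Mb, 3R minus X was 1.94 points, 38.0% of neighbours were under 2000 bases apart, 29.5% of blocks were empty, the median width was 1485 bases and the median percentile 48.1. With the 261 members in the highest-scoring 25% of the list, coverage was 3.00%, density 9.88 peaks per Mb, the differences 0.63 (2L), 0.12 (3L) and 0.43 points (X), close neighbours 23.1%, empty blocks 53.4%, median width 2387 bases and median percentile 46.9. Joining peaks less than 500 bases apart left 1291 members, 48.9 per Mb, with 34.0% close neighbours and a median width of 1032 bases. Without peaks under 300 bases, close neighbours were 50.8% and the median width 798 bases. Over whole arms, 3R minus 3L was 0.84 points. Empty blocks were 29.5% at 50 kb and 3.03% at 200 kb. Close neighbours were 46.3% at a gap of 1000 bases and 70.4% at 5000 bases. Gaps of 50 kb or more numbered 131 and those of 200 kb or more 10. Chosen after seeing the data, runs of 10 kb or more numbered 29 with gaps under 1000 bases and 106 with gaps under 5000 bases, and without the last peak the last 100 kb was covered to 13.1%. With the block grid moved by 50 kb the densest block was covered to 49.0%, and with blocks laid from the start of the distal stretch 3 blocks there were empty in place of 5.

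No paired analysis was possible because values per library were not used here, and no replicate was left out for the same reason. As read depth was not analysed here, a gap in the list cannot be told apart from sequence without enough reads.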

Other observations

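A similar arrangement of 3 peaks was found at several places on 3R. It was noticed in the data and then searched for as a peak of 2000 bases or more, a gap of 4200 to 4500 bases, a peak of 350 to 650 bases, a gap under 500 bases and a peak of 900 to 1700 bases, in either direction. On 3R it occurred at 5 places: 3R:1841693-1850231, 3R:1983910-1994249, 3R:16967382-16975952, 3R:21934490-21943232 and 3R:23168498-23177153. For comparison, 3R had 17 gaps of 4200 to 4500 bases and 283 members of 2000 bases or more in all. The large peak came first in 3 of the 5 places and last in the other 2. At 3R:23168498-23177153, a peak of 2250 bases with a score of 228.6 was followed after 4312 bases by one of 555 bases with a score of 56.8, and after 202 bases more by one of 1337 bases with a score of 173.7. At 3R:21934490-21943232 the same elements stood in the opposite order, with 2292 bases and a score of 216.2, a gap of 4346 bases, 426 bases and 51.6, a gap of 380 bases, and 1299 bases and 171.2. The long gap ran from 4312 to 4407 bases over the 5 places, and 4 of the 5 large peaks had between 2214 and 2292 bases, with 3621 bases in the other. The score percentiles ran from 98.96 to 99.6 for the large peak, from 79.4 to 85.9 for the small one and from 95.4 to 98.8 for the third. The arrangement was also met at 2 places on 2L, 4 on 3L and 2 on X, with long gaps from 4328 to 4362 bases. Since the limits of the search were set from the data, the counts are a description, and the range of the long gap is bounded by the rule. Whether these places share a sequence was not tested.

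On 3R, 26 members of 4 kb or more were at or above percentile 97. Of these, 15 lay in 3 narrow width windows and 11 lay outside them, with widths from 4914 to 10142 bases. Between 5000 and 5200 bases there were 7 members, of which 5 were at or above percentile 97. Between 6100 and 6200 bases there were 5, of which 4 were at or above that percentile. Between 7400 and 7700 bases there were 6, all at or above it, and 5 of these were single. In the same windows 6 of 8, 1 of 1 and 11 of 11 peaks reached percentile 97 on 2L, and 1 of 5, 1 of 3 and 3 of 3 did on 3L. On X it was 4 of 5 in the first window, and the others were empty. The windows were chosen after the widths were seen.

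On the other side, 14 members of 4 kb or more lay below percentile 85, and 13 of these belonged to a run. For comparison, 21 of all 83 members of 4 kb or more were single. The widest of the 14, at 3R:17421883-17428525, had 6643 bases, a score of 48.8 and stood in the run of 16 peaks. In contrast, 5 of the 1343 members narrower than 1000 bases reached percentile 95, or 0.37%, against 0.72% on 3L, 0.93% on 2L and 1.13% on X. The strongest of the 5, at 3R:3521435-3522275, had 841 bases and a score of 223.5.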
